A study of Mus musculus with 6 samples.

Results

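The genes described are 8 transcription factors of dorsal spinal interneurons: Pou4f1, Pou4f2, Barhl1, Barhl2, Lmx1b, Tlx3, Lbx1 and Ptf1a. Every probe whose RefSeq accession belonged to one of them was taken, which gave 10 probes of the 55681 on the array, and 8 of the 19897 genes that could be named. Barhl1 and Lmx1b had 2 probes each, and the other 6 genes had 1. Transcript levels came from 6 one-colour Agilent mouse arrays of cells sorted from embryonic spinal cord (E12.5). All embryos carried Hb9::GFP, a reporter in which the promoter of the motor neuron gene Hb9 drives green fluorescent protein. The groups were GFP-on cells (motor neurons) labelled mir-17~92 -/- (2 arrays), GFP-on cells labelled wild type (2 arrays), GFP-off cells (all remaining spinal cord cells) labelled mir-17~92 -/- (1 array) and GFP-off cells labelled wild type (1 array). The sources used here do not say how many embryos went into a sample, or whether replicates came from separate litters, so the spread between replicates may be technical in part. Hb9 itself (Mnx1) had no matched probe. In bulk RNA of sorted cells, a change in the number of cells of a type and a change in RNA per cell cannot be told apart.

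Dorsal interneurons arise from progenitors of the dorsal neural tube and relay or modulate somatosensory input. Each class is set apart by a combination of transcription factors, mainly homeodomain proteins, and many of these factors are switched on as the neuron leaves the cell cycle. Pou4f1 and Pou4f2 are POU homeodomain factors, also used by peripheral sensory neurons, and Barhl1 and Barhl2 are homeodomain factors of the dorsal-most class, which descends from Atoh1-expressing progenitors. Lmx1b and Tlx3 mark excitatory dorsal horn neurons, Lbx1 marks the more ventral of the dorsal classes, and Ptf1a is a basic helix-loop-helix factor that directs progenitors to an inhibitory fate. Motor neurons form in the ventral cord and use another set of factors.

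The cluster named in the genotype labels encodes 6 microRNAs, which pair with target transcripts mainly through the seed, bases 2 to 8. Their mature sequences are shown because they are what the labelled deletion removes. They are taken from RefSeq (GRCm38.p6, chromosome 14, plus strand), with the seed in capitals, and those that share a seed stand together.
miR-17-5p: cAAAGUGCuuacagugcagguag
miR-20a-5p: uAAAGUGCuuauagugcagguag
miR-18a-5p: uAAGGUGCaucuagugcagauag
miR-19a-3p: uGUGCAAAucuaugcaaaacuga
miR-19b-3p: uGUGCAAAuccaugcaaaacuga
miR-92a-3p: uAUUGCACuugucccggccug

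Of 6 hairpins, 5 start before the annotated start of Mir17hg, the host transcript whose single probe was the check of the labels, and 1 starts within it. The log2 level of Mir17hg, relative to the array's 75th percentile as for all levels given here, was 4.54 and 4.78 on the knockout-labelled GFP-on arrays (replicates 1 and 2), against -2.38 (not well above background) and 2.73 in wild-type-labelled GFP-on cells. It was 4.62 in knockout-labelled GFP-off cells and -1.23 in wild-type-labelled ones. The probe was thus higher in the knockout-labelled samples (log2 difference 4.49 ± 1.31 SE in GFP-on cells, limma adjusted p = 0.0402), opposite to a loss of the transcript. Where it lies relative to the deleted DNA is not given in the sources used here. If outside, it checks nothing, so the genotypes are called by their labels throughout.

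All arrays were on 1 slide and read in 1 scan. Row 1 of the slide held both knockout-labelled GFP-on arrays and row 2 held the other 4, so in GFP-on cells genotype label and row cannot be told apart. The descriptions give replicate 1 of the GFP-on cells and the GFP-off array of each genotype label a tag in common. What it stands for is not stated, and the tests treat these arrays as independent. The 75th percentile of signal was 59.9 and 506 for knockout-labelled and 48.5 and 64.5 for wild-type-labelled GFP-on cells. For GFP-off cells it was 550 (knockout label) and 341 (wild-type label). The share of spots well above background ranged from 41.0% to 62.3%. The lowest log2 level of a spot called well above background was -2.76 and -4.97 on the knockout-labelled GFP-on arrays (replicates 1 and 2). It was -2.10 and -2.30 on the wild-type-labelled GFP-on arrays, so a dim level can be measured on one array and not on another. Replicate 2 of the wild-type-labelled GFP-on cells stood furthest from the rest, with Pearson correlations across genes of 0.778 to 0.940 with the other arrays. Of 7 motor neuron markers tested, 4 (Lhx4, Slc18a3, Chat and Lhx3) were higher in GFP-on than in GFP-off cells and 0 were lower. Of all genes 1.54% were higher and 0.751% lower. The summed linear level of the list (in units of the array's 75th percentile) was 17.8 to 23.5 in knockout-labelled and 7.64 to 11.0 in wild-type-labelled GFP-on cells, and 4.28 and 2.74 in GFP-off cells.

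Of the 8 factors, 7 passed the filter on dim probes (well above background on at least 2 of 6 arrays), and Barhl2 did not. Because a gene could pass through 1 group alone, counts over these 7 do not stand for all 8. Between genotype labels in GFP-on cells, Pou4f2 was higher and Lmx1b was lower in the knockout-labelled cells (limma, adjusted p under 0.05), and the other 5 tested did not pass. Across all 14918 genes tested, 23% passed in this comparison, 15.8% as higher and 7.24% as lower, so 2 of 7 is near the background share. At an unadjusted p under 0.05 it was 3 of the 7 and 38.4% of all genes. The groups did not overlap for 6 of the 7 (2 higher, 4 lower), against 67.3% of all genes (41.3% higher, 26% lower). The 4 lower were Lmx1b, Barhl1, Lbx1 and Tlx3. Tlx3 was well above background on 1 knockout-labelled and 0 wild-type-labelled GFP-on arrays, and Lbx1 on 1 of each. The second Barhl1 probe had the opposite sign (0.71). The median log2 difference of the 7 was -0.69, which is the value of the dim Tlx3, against 0.34 over all genes. Between GFP-on and GFP-off cells, 0 of the 7 passed, 3 had an unadjusted p under 0.05, and 2.29% of all genes passed, 1.54% as higher and 0.751% as lower (22.1% at the unadjusted threshold). The groups did not overlap for 3 of the 7, all higher in GFP-on cells, against 27.7% of all genes (10.9% higher, 16.8% lower).

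**Figure D1:**
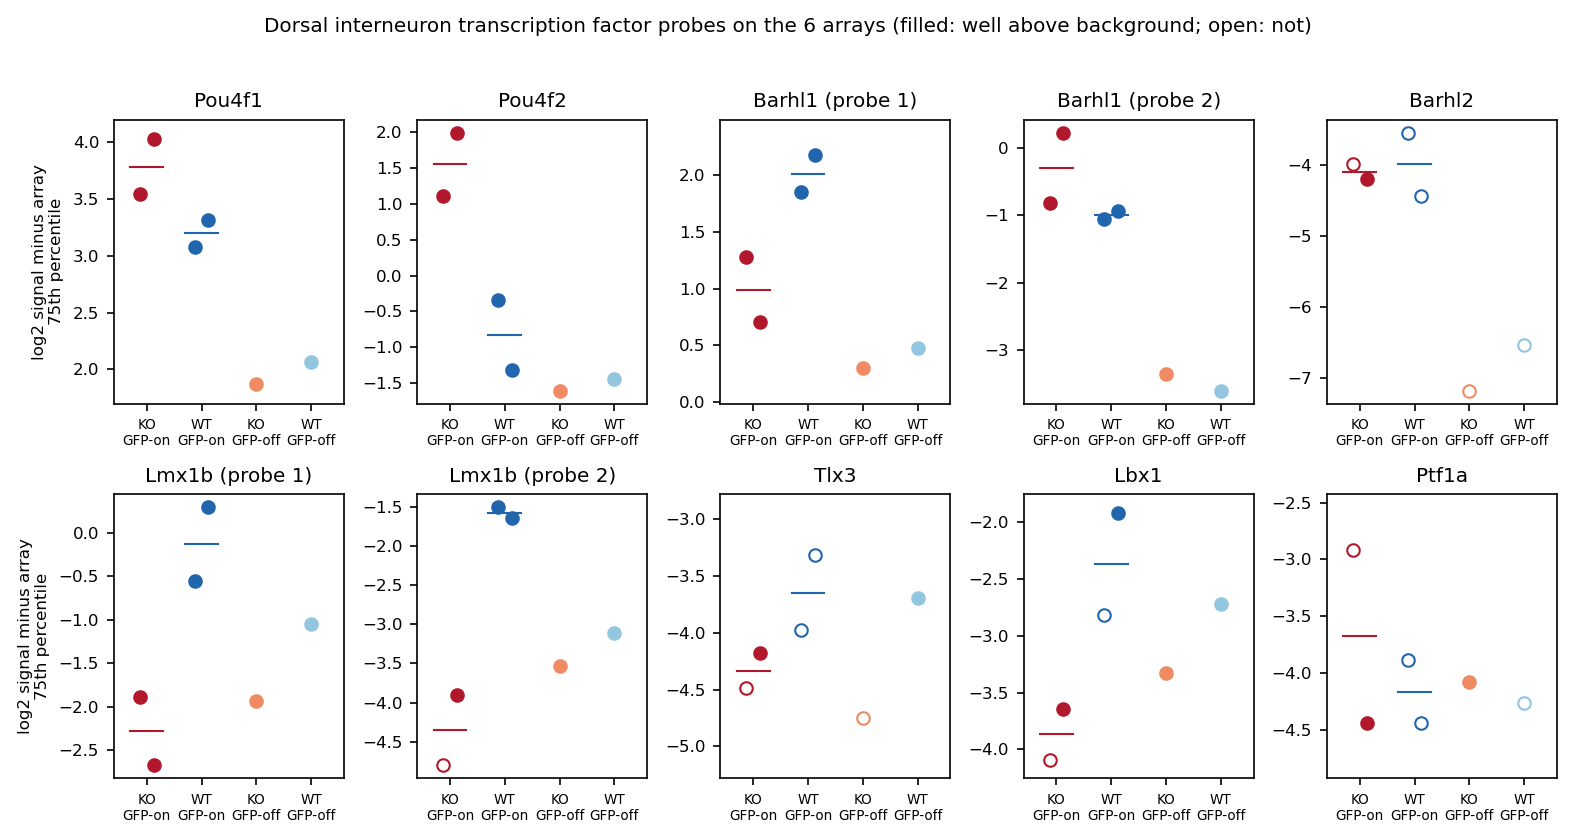
Log2 signal minus the array's 75th percentile for the 10 probes, with 1 point per array, filled where well above background. Horizontal lines are means of the 2 GFP-on arrays of a genotype label. Pou4f2 is highest on both knockout-labelled GFP-on arrays, and both Lmx1b probes are highest on both wild-type-labelled GFP-on arrays.

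Pou4f2 had log2 levels of 1.11 and 1.99 on the knockout-labelled GFP-on arrays, against -0.33 and -1.31 on the wild-type-labelled GFP-on arrays. Its levels in GFP-off cells were -1.61 (knockout label) and -1.44 (wild-type label). All 6 values were well above background, and the knockout-labelled GFP-on pair stood above all others. The mean was 1.55 ± 0.62 in knockout-labelled and -0.82 ± 0.69 in wild-type-labelled GFP-on cells (SD, n = 2 each). The log2 difference of 2.38 ± 0.56 (SE) passed the test with limma (adjusted p = 0.0210). The difference was above 0 in all 15 alternatives, but the call was lost in 5, with adjusted p between 0.000117 and 0.999 over all of them. These were leaving out knockout-labelled replicate 2 (1.94, limma adjusted p = 0.194), quantile normalization (2.43, limma adjusted p = 0.0604), no filter on dim probes (limma adjusted p = 0.0991), the additive model (1.53, limma adjusted p = 0.130) and the arrays' spike-in signal as a covariate (0.32 ± 1.67). Without wild-type-labelled replicate 2, the array that stood furthest from the rest, Pou4f2 differed by 1.89 (limma adjusted p = 0.0139) and Lmx1b by -1.73 (limma adjusted p = 0.0205).

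GFP-on cells exceeded GFP-off cells in Pou4f2 by 1.89 ± 0.64 log2 (SE; limma adjusted p = 0.144), with every GFP-on array above both GFP-off arrays. The difference was 3.16 ± 0.68 within the knockout-labelled arrays (limma adjusted p = 0.141) and 0.62 ± 0.68 within the wild-type-labelled arrays (limma adjusted p = 0.600), neither past the threshold. The order of group levels was knockout-labelled GFP-on, wild-type-labelled GFP-on, then both GFP-off arrays, and wild-type-labelled GFP-on replicate 2 lay nearer to them than to its own replicate. The test of whether the cell type difference itself differed between labels gave 2.54 ± 0.97 log2 (limma adjusted p = 0.464, unadjusted p = 0.0284). In that interaction test 0% of all genes passed, and 9.57% had an unadjusted p under 0.05. Without wild-type-labelled GFP-on replicate 1 the interaction of Pou4f2 was 3.03 and passed (limma adjusted p = 0.0255), beside 1482 genes in all.

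Pou4f1, the closest relative of Pou4f2 among the 8, had log2 levels of 3.54 and 4.03 on the knockout-labelled GFP-on arrays, against 3.08 and 3.31 on the wild-type-labelled GFP-on arrays. GFP-off levels were 1.87 (knockout label) and 2.06 (wild-type label). All 6 arrays measured it above background, and the 4 GFP-on arrays lay above both GFP-off arrays. The GFP-on minus GFP-off difference was 1.52 ± 0.43 log2 (SE, 4 arrays against 2; limma adjusted p = 0.0965, unadjusted p = 0.00610). Among the alternatives it passed in 1, the one that kept only probes above background on all 6 arrays (limma adjusted p = 0.0482). Within the labels the difference was 1.92 ± 0.59 in the knockout-labelled and 1.13 ± 0.59 in the wild-type-labelled arrays.

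Between genotype labels in GFP-on cells, Pou4f1 averaged 3.79 ± 0.35 log2 in knockout-labelled and 3.20 ± 0.17 in wild-type-labelled cells (SD, n = 2 each). The groups did not overlap, but the difference of 0.59 ± 0.48 (SE) was close to the size of its error (limma adjusted p = 0.398). Pou4f1 and Pou4f2 thus had differences of the same sign in both comparisons, of which the genotype difference of Pou4f2 passed the test. The difference between the 2 genes was not tested.

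**Figure D2:**
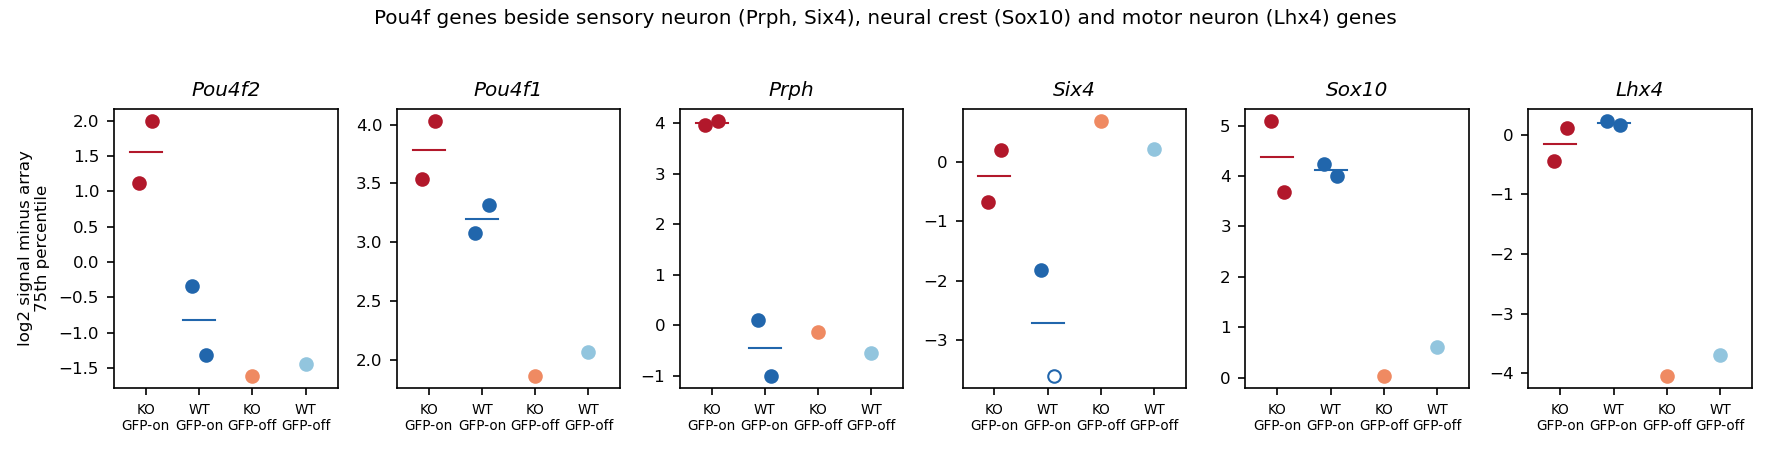
Log2 signal minus the array's 75th percentile of Pou4f2 and Pou4f1 beside Prph and Six4 (sensory neurons), Sox10 (neural crest) and Lhx4 (motor neurons). Points are arrays, filled where well above background, and lines are means of 2 arrays. Prph is high on the knockout-labelled GFP-on arrays, Six4 is lowest on the wild-type-labelled ones, and Sox10 and Lhx4 are high on all 4 GFP-on arrays.

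Some genes of sensory neurons, which also use both Pou4f factors, changed in the same comparison as Pou4f2. Of 5 sensory markers tested, 2 were higher in knockout-labelled GFP-on cells and 2 were lower, beside 15.8% and 7.24% of all genes. Another, Avil, did not pass the filter on dim probes. Such calls were not particular to sensory genes. In the same comparison 3 of 7 motor neuron markers and 5 of 8 microglia markers were higher, and 0 of either list were lower. Prph, a neurofilament-like protein of neurons with peripheral axons, was at 3.97 and 4.04 in knockout-labelled against 0.11 and -0.99 in wild-type-labelled GFP-on cells (4.44 ± 0.53 SE, limma adjusted p = 0.00542). Six4, a homeodomain factor of early sensory neurons, was at -0.67 and 0.21 in knockout-labelled against -1.82 and -3.61 in wild-type-labelled GFP-on cells, the last not well above background (2.48 ± 0.66 SE, limma adjusted p = 0.0308). In GFP-off cells Six4 was at 0.70 (knockout label) and 0.23 (wild-type label), above all 4 GFP-on arrays, whereas Pou4f2 was lowest in GFP-off cells. Runx1 and Runx3, which pattern sensory neuron subtypes, were lower by their brightest probes (-1.79 and -1.87), while a second probe of each had the opposite sign (1.31 and 2.02). Tested singly, the second Runx3 probe passed as higher (limma adjusted p = 0.0273) and that of Runx1 did not (limma adjusted p = 0.110). The probes of both genes disagreed in sign, so neither gene has a settled direction. The summed linear level of the 5 genes was 21.8 to 26.8 in knockout-labelled and 5.22 to 12.0 in wild-type-labelled GFP-on cells, and 12.6 and 10.7 in GFP-off cells. Their part in the Pou4f2 difference was not tested.

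Some neural crest genes changed in the comparison of cell types, in which all 4 GFP-on arrays had the higher Pou4f levels. Sox10, a neural crest and glial factor, was at 5.09 and 3.68 in knockout-labelled and 4.23 and 3.99 in wild-type-labelled GFP-on cells, against 0.04 and 0.60 in GFP-off cells. It and Foxd3 were the 2 of 5 neural crest markers that passed as higher in GFP-on cells, beside 1.54% of all genes. Such calls were not particular to neural crest genes. In the same comparison 4 of 7 motor neuron markers and 1 of 7 ventral interneuron markers were higher. The summed linear level of the 5 neural crest markers was 24.6 to 52.0 in knockout-labelled and 24.9 to 27.8 in wild-type-labelled GFP-on cells, against 2.78 and 3.29 in GFP-off cells. The part of these cells in the Pou4f levels was not tested.

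Lmx1b, the LIM homeodomain factor, was the member that passed as lower. Its brighter probe read -1.89 and -2.68 log2 on the knockout-labelled GFP-on arrays, against -0.55 and 0.30 on the wild-type-labelled GFP-on arrays. GFP-off cells gave -1.93 (knockout label) and -1.04 (wild-type label), so both wild-type-labelled GFP-on arrays were above the other 4, and all 6 were above background. The means were -2.29 ± 0.56 in knockout-labelled and -0.13 ± 0.60 in wild-type-labelled GFP-on cells (SD, n = 2 each), a difference of -2.16 ± 0.54 (SE; limma adjusted p = 0.0250).

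The second Lmx1b probe had the same direction. It read -4.81 (not well above background) and -3.91 on the knockout-labelled GFP-on arrays, against -1.50 and -1.64 on the wild-type-labelled GFP-on arrays, and -3.53 and -3.11 in GFP-off cells (knockout and wild-type label). When each probe was tested singly, its difference was -2.79 ± 0.55 (SE; limma adjusted p = 0.0137). The difference of the brighter probe was below 0 in all 15 alternatives, between -2.58 and -0.34, but the call was lost in 7, with adjusted p from 0.000757 to 0.999. These included scaling by the array median (-1.52, limma adjusted p = 0.0669), normexp background correction (-1.29, limma adjusted p = 0.119) and leaving out knockout-labelled replicate 2 (-1.77, limma adjusted p = 0.252). Between GFP-on and GFP-off cells Lmx1b differed by 0.28 ± 0.50 log2 (limma adjusted p = 0.768), and the groups overlapped. Its differences were -0.35 among knockout-labelled arrays and 0.92 among wild-type-labelled arrays, and their interaction did not pass (-1.27 ± 0.93, limma adjusted p = 0.723). The second probe's interaction was -2.36 ± 0.95 (limma adjusted p = 0.578).

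**Figure D3:**
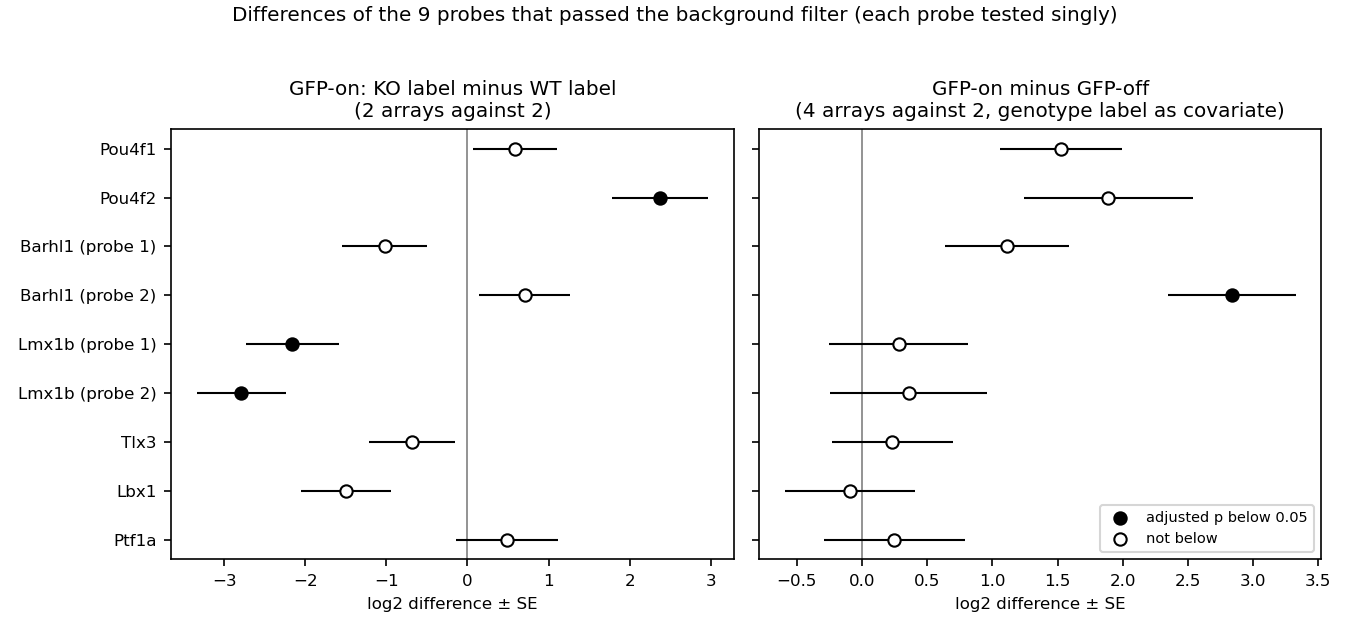
Log2 differences with their SE for the 9 probes that passed the filter, each tested singly, for knockout label minus wild-type label in GFP-on cells (left) and GFP-on minus GFP-off cells (right). Filled points have an adjusted p under 0.05. On the left these are Pou4f2 (2.38) and both Lmx1b probes (-2.16 and -2.79), and on the right the second Barhl1 probe (2.84).

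The promoter windows of Pou4f2, Lmx1b and Barhl1 are given because the first 2 genes passed the genotype comparison in opposite directions and the probes of the third disagreed. They are 300 bases from RefSeq (GRCm38.p6), 250 before and 50 after the annotated start, written 5′ to 3′ on the gene's strand. Capitals mark TAAT on either strand (also read as ATTA), the core that homeodomains bind, and CANNTG, the E-box core of basic helix-loop-helix factors. Overlapping matches run together. Barhl1 has 2 annotated starts.
Pou4f2 promoter, chr8:78436598-78436897, minus strand: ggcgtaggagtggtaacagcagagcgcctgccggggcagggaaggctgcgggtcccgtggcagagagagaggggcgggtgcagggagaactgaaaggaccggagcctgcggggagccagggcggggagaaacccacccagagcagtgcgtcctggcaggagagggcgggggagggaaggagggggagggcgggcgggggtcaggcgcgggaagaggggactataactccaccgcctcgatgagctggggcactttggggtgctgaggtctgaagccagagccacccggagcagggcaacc
Lmx1b promoter, chr2:33641049-33641348, minus strand: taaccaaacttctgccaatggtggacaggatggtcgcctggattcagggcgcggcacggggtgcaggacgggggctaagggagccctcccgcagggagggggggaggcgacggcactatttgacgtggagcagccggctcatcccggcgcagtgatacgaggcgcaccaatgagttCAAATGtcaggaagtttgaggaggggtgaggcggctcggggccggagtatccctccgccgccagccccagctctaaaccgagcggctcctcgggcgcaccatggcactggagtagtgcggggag
Barhl1 promoter, chr2:28916619-28916918, minus strand: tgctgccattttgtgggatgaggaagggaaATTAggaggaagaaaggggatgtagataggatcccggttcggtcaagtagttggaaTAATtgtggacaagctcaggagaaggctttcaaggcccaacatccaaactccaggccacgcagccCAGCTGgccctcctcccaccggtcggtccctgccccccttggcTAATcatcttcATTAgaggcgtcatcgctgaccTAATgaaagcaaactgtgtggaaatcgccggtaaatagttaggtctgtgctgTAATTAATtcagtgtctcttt
Barhl1 promoter, chr2:28912446-28912745, minus strand: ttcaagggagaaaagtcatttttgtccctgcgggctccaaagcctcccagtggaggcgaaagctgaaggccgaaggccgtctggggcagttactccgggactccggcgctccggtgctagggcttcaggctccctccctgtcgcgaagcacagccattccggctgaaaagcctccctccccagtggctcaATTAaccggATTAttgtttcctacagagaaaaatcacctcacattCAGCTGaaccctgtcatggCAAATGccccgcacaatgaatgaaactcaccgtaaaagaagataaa

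The Pou4f2 window held 0 matches to either motif, and the Lmx1b window held 0 to TAAT and 1 to CANNTG. The first Barhl1 window held 8 matches to TAAT and 1 to CANNTG, and the second held 2 of each. Of the 32851 promoter windows in the table, 58.0% held TAAT and 72.3% held CANNTG. Among the other members, the Tlx3 window held 5 matches to TAAT and 0 to CANNTG, Barhl2 0 and 3, Pou4f1 0 and 2, and Ptf1a 0 and 0. These matches describe the letters in the windows alone.

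Barhl1, a factor of commissural neurons from the Atoh1 domain, was read by 2 probes that disagreed on the genotype labels. The brighter probe read 1.27 and 0.71 log2 on the knockout-labelled GFP-on arrays, against 1.85 and 2.17 on the wild-type-labelled GFP-on arrays, and 0.30 and 0.48 in GFP-off cells (knockout and wild-type label). The second probe read -0.81 and 0.23 on the knockout-labelled GFP-on arrays, against -1.05 and -0.94 on the wild-type-labelled GFP-on arrays, and -3.35 and -3.61 in GFP-off cells. Every value was above background. By the brighter probe the knockout-labelled pair lay below the wild-type-labelled pair (-1.02 ± 0.49 SE, limma adjusted p = 0.158), and by the second it lay above (0.71 ± 0.56, limma adjusted p = 0.367). Neither passed, so these data give Barhl1 no direction between the labels.

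The 2 probes shared the direction between cell types. All 4 GFP-on arrays were above both GFP-off arrays for each. The brighter probe differed by 1.11 ± 0.44 log2 (SE; limma adjusted p = 0.188). The second differed by 2.84 ± 0.49, and passed when the 33264 probes that survived the filter were tested singly (limma adjusted p = 0.0378). Within the labels its difference was 3.07 in knockout-labelled and 2.61 in wild-type-labelled arrays, and that of the brighter probe was 0.69 and 1.53. The sizes from the 2 probes thus differed, and a level of one probe cannot be set against that of the other.

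Barhl2, the partner of Barhl1 in the same lineage, was well above background on 1 array, knockout-labelled GFP-on replicate 2, at -4.20 log2. The other GFP-on arrays gave -3.98 (knockout label), -3.54 and -4.44 (wild-type label), and the GFP-off arrays -7.17 (knockout label) and -6.53 (wild-type label), none of them well above background. With 1 of 6 arrays measured, no fold is given between cell types. Between genotype labels the GFP-on values overlapped. Without the filter on dim probes, no gene passed the cell type test, so that setting cannot say anything particular to Barhl2.

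Lbx1, which specifies the association interneuron classes, was low throughout. It read -4.09 (not well above background) and -3.64 log2 on the knockout-labelled GFP-on arrays, against -2.82 (not well above background) and -1.92 in wild-type-labelled GFP-on cells, and -3.33 and -2.72 in GFP-off cells (knockout and wild-type label). Both knockout-labelled GFP-on values lay below both wild-type-labelled ones, but 1 value of each pair was not measured above background. The order of the 4 values and the size of their difference are therefore uncertain. The means were -3.87 ± 0.32 in knockout-labelled and -2.37 ± 0.64 in wild-type-labelled cells (SD, n = 2 each), and the difference of -1.50 ± 0.52 (SE) did not pass (limma adjusted p = 0.0678). The difference passed in 2 of 14 alternatives, 1 of which left out wild-type-labelled replicate 1 (-1.95). The difference kept its sign in all 14 alternatives, from -1.95 to -0.86, with adjusted p from 0.00432 to 0.999. Between cell types the difference was -0.10 ± 0.47 (limma adjusted p = 0.923).

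Tlx3, a selector of the glutamatergic over the GABAergic fate, was well above background on 2 arrays, knockout-labelled GFP-on replicate 2 (-4.18) and wild-type-labelled GFP-off (-3.69). The remaining values were -4.49 (knockout-labelled GFP-on replicate 1), -3.98 and -3.32 (wild-type-labelled GFP-on) and -4.75 (knockout-labelled GFP-off), none of them well above background. The genotype difference in GFP-on cells was -0.69 ± 0.49 log2 (SE; limma adjusted p = 0.338), and that between cell types 0.23 ± 0.42 (limma adjusted p = 0.774). Ptf1a was also above background on 2 arrays, knockout-labelled GFP-on replicate 2 (-4.44) and knockout-labelled GFP-off (-4.08). Its other values were -2.92 (knockout-labelled GFP-on replicate 1), -3.89 and -4.44 (wild-type-labelled GFP-on) and -4.26 (wild-type-labelled GFP-off), and the groups overlapped in both comparisons. Its differences were 0.49 ± 0.60 between labels (limma adjusted p = 0.586) and 0.25 ± 0.51 between cell types (limma adjusted p = 0.802). No change was called in either gene.

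In GFP-off cells, the fraction that takes in interneurons without the reporter, the labels were compared by 1 array each and without a test. The knockout-labelled minus wild-type-labelled difference was -0.20 log2 for Pou4f1, -0.16 for Pou4f2, -0.18 for the brighter Barhl1 probe, -0.89 for the brighter Lmx1b probe, -0.61 for Lbx1 and 0.18 for Ptf1a. Tlx3 was lower by over 2-fold (-1.05), with the knockout-labelled array not well above background, beside 6.54% of all genes over 2-fold in either direction, 3.22% higher and 3.32% lower. The scaling to the array median, quantile normalization and normexp each brought Tlx3 within 2-fold. By the main scaling, the differences of Lmx1b, Lbx1, Tlx3 and the brighter Barhl1 probe were thus below 0 in both fractions. Over 4 alternatives the GFP-off difference of the brighter Barhl1 probe ran from -0.19 to 0.08, so its sign there is not settled. That of the second Barhl1 probe was above 0 in both (0.71 in GFP-on and 0.25 in GFP-off cells). The difference of Pou4f2 was above 0 in GFP-on cells and slightly below it in GFP-off cells, where it ran from -0.26 to 0.09 over the alternatives.

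Other genes of dorsal interneurons and their progenitors were measured as a list of 26, of which 25 were tested. Between labels in GFP-on cells 3 were higher and 1 was lower in the knockout-labelled cells, and 21 did not pass, with a median log2 difference of 0.50 (0.34 over all genes). Of all genes 15.8% were higher and 7.24% lower, so the counts of this list were not above those shares. Isl1, a LIM homeodomain factor of one dorsal class and also of motor and sensory neurons, read 2.46 and 2.86 in knockout-labelled against 0.05 and 0.12 in wild-type-labelled GFP-on cells (2.57 ± 0.47 SE, limma adjusted p = 0.0105). Phox2a, known from noradrenergic and some dorsal projection neurons, differed by 2.39 ± 0.48 (limma adjusted p = 0.0129), and Lhx2, of the dorsal-most class, by 1.93 ± 0.48 (limma adjusted p = 0.0241). Pax2, an inhibitory interneuron factor, read -4.11 (not well above background) and -3.66 in knockout-labelled against -1.45 and -1.33 in wild-type-labelled GFP-on cells (-2.49 ± 0.47, limma adjusted p = 0.0115), and its other 2 probes gave -2.11 and -2.18 without passing. The count moved with the setting. It was 11 higher and 1 lower under scaling to the array median, 2 and 0 with normexp, 4 and 0 with quantile normalization, and 0 and 1 without knockout-labelled replicate 2. It was 0 and 0 with no filter, with the spike-in covariate and in the additive model.

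Between GFP-on and GFP-off cells, 4 of the 25 were higher and 0 were lower, beside 1.54% and 0.751% of all genes. The count was 0 and 0 under quantile normalization, with no filter and with the spike-in covariate. Foxd3, which is also a neural crest factor, differed by 4.29 ± 0.40 log2 (SE; limma adjusted p = 0.00867), Bhlhe22 by 2.48 ± 0.43 (limma adjusted p = 0.0308) and Lhx2 by 2.0 ± 0.40 (limma adjusted p = 0.0448). Dmrt3, a factor of an inhibitory commissural class, also passed (limma adjusted p = 0.0230), but was well above background on the 2 knockout-labelled GFP-on arrays alone (-1.95 and -2.65). It was not well above background in wild-type-labelled GFP-on cells (-3.67 and -4.02) or in GFP-off cells, so it entered the test through 1 group and is given no fold. Lhx2 was the gene of the list that passed as higher in both comparisons. The median of the list was 0.67, against -0.21 over all genes.

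**Figure D4:**
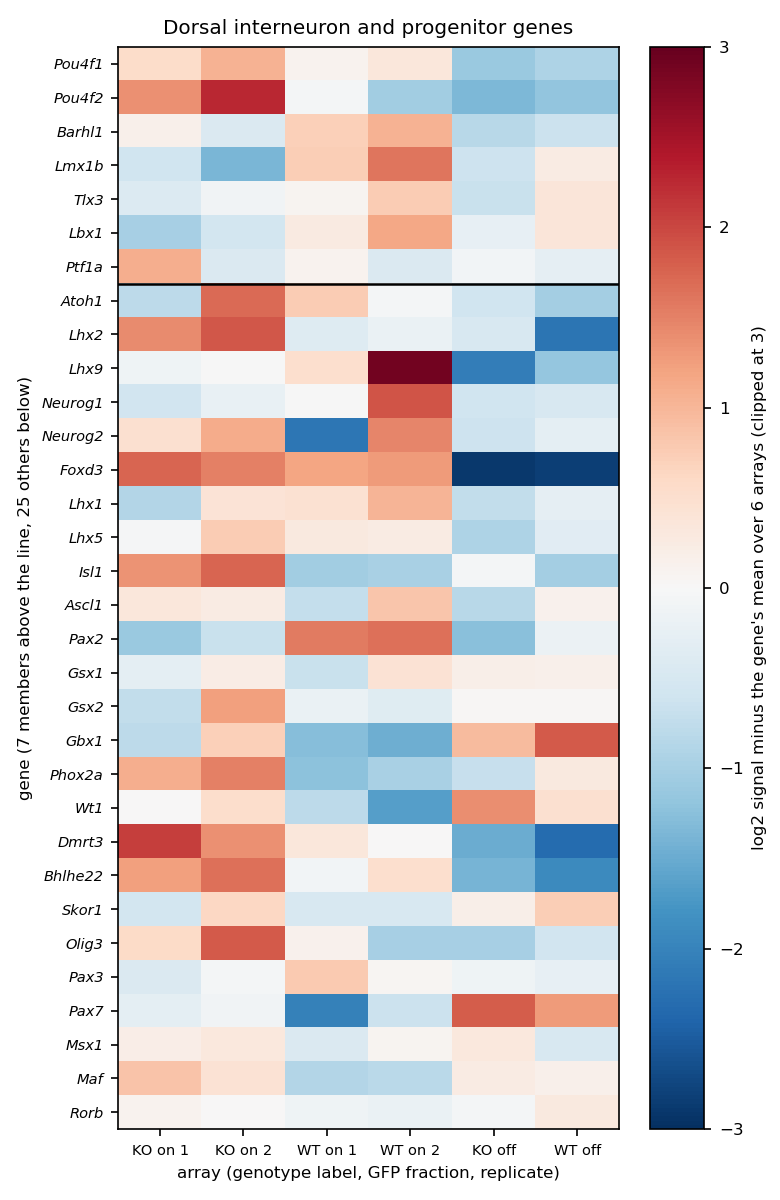
Log2 signal minus each gene's mean over the 6 arrays (colour, clipped at 3) for the 7 tested members (above the line) and 25 other dorsal genes (below), with arrays in columns by genotype label, GFP fraction and replicate. Pou4f2, Isl1 and Phox2a are highest on the knockout-labelled GFP-on arrays, and Lmx1b and Pax2 on the wild-type-labelled ones.

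Among 4 tested paralogues of the members, Tlx1, the relative of Tlx3 with which it shares dorsal horn roles, was lower in knockout-labelled GFP-on cells (-2.99 ± 0.63 log2 SE, limma adjusted p = 0.0148), and 0 were higher. It read -3.12 (not well above background) and -4.80 in knockout-labelled against -0.72 and -1.22 in wild-type-labelled GFP-on cells, and -3.31 and -3.84 in GFP-off cells (knockout and wild-type label). Of all genes, 15.8% were higher and 7.24% lower in that comparison of labels. Of 8 tested transmitter and peptide genes of dorsal neurons, 2 were higher in knockout-labelled GFP-on cells and 0 were lower. These were Slc17a6, the vesicular glutamate transporter of excitatory neurons (3.28 ± 0.53, limma adjusted p = 0.00777), and Gad1, the GABA-synthesising enzyme of inhibitory neurons (2.69 ± 0.54, limma adjusted p = 0.0131). Sst, the peptide somatostatin, was higher in GFP-on than in GFP-off cells (2.10 ± 0.40, limma adjusted p = 0.0388). It was the 1 of these 8 genes that passed between cell types, beside 1.54% of all genes higher.

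For the 5 members above background on at least 4 arrays, likeness to every other gene was measured as the mean absolute difference of log2 levels over the 6 arrays, after each gene's own mean was subtracted. The genes nearest Pou4f1 were Trim36 (0.0974) and Plxna4 (0.119), and those nearest Pou4f2 were Kcnmb2 (0.230) and Scn10a (0.272), which encode subunits of a potassium and a sodium channel. The genes nearest Barhl1 were Ptms (0.0501) and Gdpgp1 (0.0612), those nearest Lmx1b were H4c8 (0.0698) and Ctdspl2 (0.0990), and those nearest Lbx1 were Cadps2 (0.0723) and Tdg-ps2 (0.0746). With 14917 candidates and 6 arrays these are descriptions of the arrays alone.

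Among these 5 members the nearest pair was Lmx1b and Lbx1 (0.441), and the least alike were Pou4f2 and Lmx1b (1.87). Lbx1 came at rank 883 in the ordering of all genes by likeness to Lmx1b, so many other genes were more alike to Lmx1b by this measure.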

How the data were processed

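Agilent Feature Extraction read the spots, in version 10.5.1.1 per the file headers and 9.1 per the submitters' processing notes. The deposited intensity is a processed signal, background-subtracted and without scaling between arrays. The authors' value table is in log2 and equals that signal minus the array's 75th percentile within 0.01 for over 99% of probes, without centring of genes. Flags for spots above background or irregular are deposited in other, coded columns. No spot was saturated.

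Here, log2 processed signals were averaged over unflagged spots of a probe and the array's 75th percentile was subtracted. Probes were named through RefSeq accessions (26300 of 55681 probes). The headers name mm9, so no array coordinates are given. The brightest probe that passed the filter stood for a gene. limma 3.58.1 in R 4.3.3 (lmFit, eBayes, Benjamini-Hochberg over 14918 genes, threshold 0.05) tested genotype labels and the interaction in a model of 4 group means (2 residual degrees of freedom, the single GFP-off arrays assumed to vary alike), and cell types in an additive model (3 residual degrees of freedom). An exact permutation test cannot go below p = 0.333 with 2 arrays against 2, or 0.0667 with 4 against 2. The members, lists and naming rule (all members, up to 6 passing genes per list and comparison, the 2 nearest genes per member, Mir17hg) were chosen with earlier results of these data known. One marker gene of the lists is not reported here. Marker lists of ventral interneurons (1 of 7 higher in knockout-labelled GFP-on cells), progenitors (2 of 5), microglia (5 of 8), endothelium (2 higher and 1 lower of 6), erythroid cells (2 of 7) and mesenchyme (0 of 6) were also counted. These counts stand beside 15.8% of all genes higher and 7.24% lower. Between GFP-on and GFP-off cells 1 of 7 ventral interneuron genes was higher and 6 of 7 erythroid genes were lower, beside 1.54% and 0.751% of all genes. Simulated data held 14918 genes, of which 14718 were unchanged. There the genotype test recovered 0 of 67 genes changed by 2 log2 and 53 of 66 changed by 4, and the cell type test 15 of 67 and 66 of 66. The adjusted p depends on how many genes change, and in the measured data 3432 and 342 genes passed these tests. The simulated recovery therefore does not give the smallest change that the measured data can show. Alternatives covered background correction, scaling, filter, probe choice, covariates, model and arrays left out.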

Additional observations from a re-analysis of the deposited data

How the results depend on the processing

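No member's difference was past the threshold with both signs. Counts are given as members, then all genes. For genotype labels in GFP-on cells (2 and 3432), normexp gave 1 and 1399, the array median 1 and 5164, quantile normalization 0 and 1696, no filter 0 and 0 (5042 genes at an unadjusted p under 0.05 with limma), the spike-in covariate 0 and 9, and the additive model 0 and 0 (4663 unadjusted). Leaving out 1 array gave 0 to 3 members and 903 to 7019 genes, with 0 members without knockout-labelled replicate 2. The share called higher was 68.5%, against 80.2%, 89.7% and 88.9% under normexp, the array median and quantile normalization, which moved the median of all genes from 0.34 to 0.16, 0.98 and 0.44. For cell types (0 and 342), keeping only probes above background on all arrays gave 1 and 563. Genes alone changed under quantile normalization (0), no filter (0, with 5665 unadjusted), single probes (165), the spike-in covariate (2), the mean of within-label differences (1008), within knockout-labelled arrays (0, with 1416 unadjusted), within wild-type-labelled arrays (873) and slide row 2 alone (1103). Leaving out 1 array gave 0 to 1102 genes and 0 members. The share higher was 67.3%, against 52.7% with normexp and 53.7% with the array median. For the interaction (0 and 0), normexp gave 1 gene and the array median 79, and leaving out 1 array gave 0 to 1 member and 12 to 1482 genes. In GFP-off cells the 1 member over 2-fold became 0 under normexp, the array median and quantile normalization. The cause of these changes was not tested.

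The replicate numbers of the labels state no pairing within GFP-on cells, and replicate differences correlated at -0.152 between genotype labels across genes. With the replicate block the genotype comparison gave 2 members and 3606 genes, cell types 0 and 387, and the interaction 0 and 34. The crossed pairing, chosen after seeing the data, gave 3 members and 5261 genes. Dim signal limits Tlx3, Ptf1a, Lbx1 and Barhl2, which were not above background on 2 to 5 of the 6 arrays.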
